A study of Saccharomyces cerevisiae with 8 samples.

Results

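The 10 genes described here serve iron supply and iron saving in budding yeast (Saccharomyces cerevisiae): FET3, FTR1, FRE2 and FET4 at the plasma membrane, FET5, FTH1 and SMF3 at the vacuole, CCC2 in the Golgi, and TIS11 and LSO1, which transport nothing. They were chosen by name, and all 10 were found among the 7127 features of the deposited table and passed the filter on low values. The study sequenced poly(A) RNA of the haploid laboratory strain BY4741 and of a Trm2KO strain of the same background, which lacks the methyltransferase that makes 5-methyluridine in tRNAs. Both strains, the wild type (WT) and Trm2KO, were cultured at 30 °C in YPD, some with hygromycin B at 50 µg/mL, an antibiotic that interferes with movement of the ribosome along mRNA. This gave 4 groups of 2 libraries, described as biological duplicates. The labels' protocols put 200 µg/mL Geneticin in the knockout cultures and do not mention it for wild type, so the knockout and Geneticin cannot be told apart, also in what is called without drug below. They also give an OD600 of 0.4 at harvest for hygromycin B cultures and 0.6 to 0.8 in general, so the drug and harvest density cannot be told apart. No medium with low or added iron is named for the 8 libraries.

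Yeast takes up iron in several ways. In reductive uptake, surface reductases such as Fre2 turn ferric into ferrous iron, which the multicopper oxidase Fet3 oxidises again as it passes through the permease Ftr1; Fet3 is loaded with copper in the secretory pathway, where the ATPase Ccc2 pumps it in. Fet5 and Fth1 form the matching oxidase and permease of the vacuole membrane and release stored iron together with Smf3, whereas Fet4 is a low-affinity ferrous iron transporter of the plasma membrane. When iron is scarce, the transcription factors Aft1 and Aft2 activate these genes through a promoter element, and Tis11, also known as Cth2, binds the mRNAs of iron-using proteins and promotes their decay.

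The promoter element read by Aft1 is shown because it is the feature these genes share by sequence. The letters TGCACCC were searched on both strands in the 500 bases before the start codon of each gene in the RefSeq annotation of assembly R64. They were found for 9 of the 10 genes, against 2.33% of 6000 protein-coding genes with a full window. The shorter core GCACCC, which is part of TGCACCC, was found for all 10, against 7.62% of the 6000. The genes were chosen as iron genes, many of them known Aft1 targets, so these shares describe the choice and are no independent result. The sites below are written 5′ to 3′ on the strand of the gene with 20 bases on each side, and the capitals mark TGCACCC or GCACCC, or the reverse complement (GGGTGCA or GGGTGC) where the letters lie on the other strand. FET3 and FTR1 are the plasma membrane pair, FET5 and FTH1 the vacuolar pair, and TIS11 and LSO1 the genes with the widest swings.
FET3: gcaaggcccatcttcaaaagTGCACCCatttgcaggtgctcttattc
FTR1: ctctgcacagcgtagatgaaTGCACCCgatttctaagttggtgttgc
FET5: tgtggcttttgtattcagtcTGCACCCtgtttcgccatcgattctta
FTH1: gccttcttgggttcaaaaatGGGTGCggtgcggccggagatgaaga
TIS11: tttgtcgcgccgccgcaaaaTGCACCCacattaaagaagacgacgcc
LSO1: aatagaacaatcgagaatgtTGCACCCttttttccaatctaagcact

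These sites lie at chrXIII:388551-388597 (plus strand) for FET3, chrV:461889-461935 (minus strand) for FTR1, chrVI:48991-49037 (plus strand) for FET5, chrII:634948-634993 (plus strand) for FTH1, chrXII:416881-416927 (minus strand) for TIS11 and chrX:448877-448923 (minus strand) for LSO1, in R64. The capitals end 245 bases before the start codon in FET3, 169 in FTR1, 122 in FET5, 173 in FTH1, 243 in TIS11 and 139 in LSO1. FTH1 was the gene without the full TGCACCC. FTR1, CCC2 and TIS11 each held TGCACCC at 2 places. In CCC2 these were 284 and 236 bases before the start, both on the strand opposite to the gene. The hypoxic element of Rox1, searched as ATTGTT, was in 3 of the 10 windows (SMF3, TIS11 and LSO1) and in 48.9% of the 6000.

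Levels are normalised FPKM, the authors' values per transcript length and mapped fragments divided by a factor per library, so they can be compared between genes. Read depth was not recoverable from these values. TRM2 (YKR056W) was at 116 to 158 in the 4 wild-type libraries and listed at 0 in all 4 knockout libraries. The features with ribosomal DNA names took 2.01% to 19.3% of the FPKM sum of a library and differed within groups, which moves FPKM before scaling. The test was limma on log2(normalised FPKM + 1) over 6439 genes with Benjamini-Hochberg adjustment, and rose, fell and changed are used for an adjusted p under 0.05. Log2 differences are on that scale, which understates the change of low genes, and compare a gene with the rest of its library. The folds given with the tests are computed from these log2 differences. They understate low genes in the same way and can differ from the ratio of the printed levels, most of all for LSO1. Nothing in the sources used here says more of how the duplicates were made. The p-values rest on the spread between the 2 libraries of a group, pooled over the 4 groups and moderated across genes. A comparison thus also depends on libraries outside it.

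**Figure D1:**
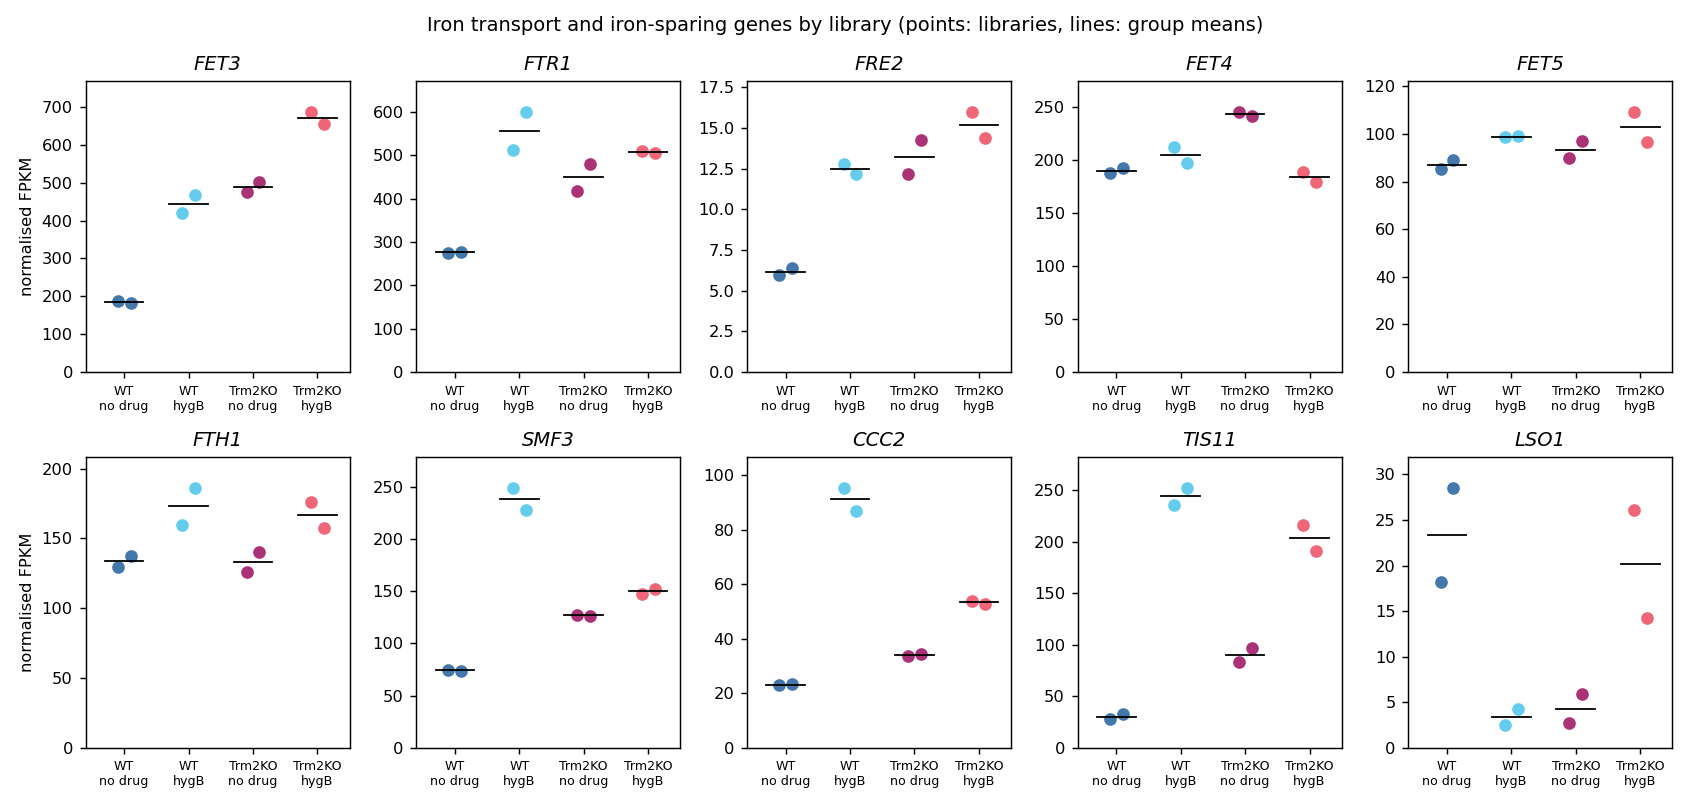
Normalised FPKM (vertical axes, from 0, a scale for each gene) of the 10 genes in the 8 libraries, by group; points are libraries and lines are means of 2. FET3, FTR1, FRE2, SMF3, CCC2 and TIS11 are lowest in wild type without drug, FET5 stays between 85.3 and 109, and LSO1 is high in wild type without drug and in the knockout with it.

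FET3 (YMR058W), the oxidase of high-affinity uptake, was lowest in wild type without drug, at 188 and 182 normalised FPKM. It was at 420 and 468 in wild type with hygromycin B, at 477 and 503 in the knockout without drug, and at 686 and 656 in the knockout with hygromycin B. No libraries of different groups overlapped, although the lowest knockout library without drug lay close to the highest treated wild-type library, a pair of groups that was not tested. FET3 rose 2.64-fold with the knockout without drug (log2 1.40 ± 0.068 SE, limma adjusted p = 9.35e-05) and 2.39-fold with hygromycin B in wild type (log2 1.25 ± 0.068, adjusted p = 7.43e-06). With hygromycin B it was still 1.51-fold higher in the knockout (log2 0.60 ± 0.068, adjusted p = 0.00022), a call that was lost under other scalings. The value was log2 0.27 for TPM (adjusted p = 0.29) and 0.092 for unscaled FPKM (adjusted p = 0.895), where the median of all genes was at −0.35 and −0.53, and relative to that median FET3 was higher by 0.43 to 0.63 under the 4 scalings. FET3 and FTR1 had the highest means of the 10 genes over the 8 libraries, 447 each.

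FTR1 (YER145C), the permease that works with Fet3, was at 275 and 276 in wild type without drug and at 511 and 599 with hygromycin B. In the knockout it was at 418 and 481 without drug and at 509 and 506 with it. The untreated wild type was lowest, and the treated knockout libraries lay just below the lower treated wild-type library without overlap. FTR1 rose 1.62-fold with the knockout without drug (log2 0.70 ± 0.095 SE, adjusted p = 0.00225) and 2.00-fold with the drug in wild type (log2 1.00 ± 0.095, adjusted p = 8.15e-05). In the knockout the drug difference was log2 0.18 ± 0.095 and did not pass (adjusted p = 0.174), although it did with quantile normalisation (log2 0.35, adjusted p = 0.0424).

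FRE2 (YKL220C), a ferric and cupric reductase of the cell surface, was the lowest of the transport genes. Its libraries were at 5.99 and 6.37 in wild type without drug, 12.8 and 12.2 in wild type with hygromycin B, 12.2 and 14.3 in the knockout without drug, and 16.0 and 14.4 in the knockout with it. The untreated wild type stood well below the rest, the treated wild type and untreated knockout overlapped, and the treated knockout lay just above them. FRE2 rose 1.97-fold with the knockout without drug (log2 0.98 ± 0.10 SE, adjusted p = 0.000946) and 1.88-fold with the drug in wild type (log2 0.91 ± 0.10, adjusted p = 0.000207).

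FET4 (YMR319C), the low-affinity transporter, differed little between groups. It was at 187 and 192 in wild type without drug, 212 and 197 with the drug, 245 and 241 in the knockout without drug, and 188 and 179 in the knockout with it. The highest group was the untreated knockout, whose libraries did not overlap any other. FET4 rose 1.28-fold with the knockout without drug (log2 0.36 ± 0.055 SE, adjusted p = 0.00341), a call lost both for unscaled FPKM (log2 0.059) and for TPM (log2 0.13, adjusted p = 0.756). It fell by 0.40 ± 0.055 on the log2 scale with hygromycin B in the knockout (adjusted p = 0.00221), a value of −0.10 with TPM (adjusted p = 0.779) and 0.0021 with FPKM as deposited, where the median of all genes was at 0.26 and 0.36. Relative to the median of all genes that value was −0.38 to −0.29 under the 4 scalings. In wild type its drug difference was log2 0.11 ± 0.055 (adjusted p = 0.114), which passed without treated wild-type library 2 (log2 0.16, adjusted p = 0.0252), with TPM (0.0344) and with quantile normalisation (0.0037).

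CCC2 (YDR270W), the copper pump that supplies Fet3, followed hygromycin B in wild type more than the knockout. It was at 22.9 and 23.4 in wild type without drug, 95.4 and 87.0 with the drug, 33.6 and 34.3 in the knockout without drug, and 54.1 and 52.9 in the knockout with it. The 4 groups did not overlap. CCC2 rose 3.82-fold with the drug in wild type (log2 1.93 ± 0.058 SE, adjusted p = 1.17e-06), 1.45-fold with the knockout without drug (log2 0.54 ± 0.058, adjusted p = 0.000995) and 1.56-fold with the drug in the knockout. The table's own annotation says that the dubious frame YDR271C overlaps CCC2, and the strand setting of the counting was not given, so their reads cannot be told apart. YDR271C was at 14.2 to 57.0 over the 8 libraries.

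FET5 (YFL041W), the oxidase of the vacuole membrane, was at 85.3 and 89.0 in wild type without drug, 98.6 and 99.0 with the drug, 89.9 and 96.8 in the knockout without drug, and 109 and 96.7 in the knockout with it. It passed in 0 of the 5 comparisons, by limma over all genes, and 1 of them, the drug in wild type, had an unadjusted p under 0.05 (log2 0.18 ± 0.071 SE, unadjusted p = 0.0417, adjusted p = 0.0526). That comparison passed without treated knockout library 1 (adjusted p = 0.0358) or 2 (adjusted p = 0.0356), with only the groups compared in the fit (adjusted p = 0.0475) and with TPM (adjusted p = 0.0121).

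FTH1 (YBR207W), the permease partner of Fet5, was at 130 and 138 in wild type without drug, 160 and 186 with the drug, 126 and 140 in the knockout without drug, and 176 and 157 in the knockout with it. The libraries of the genotypes overlapped at either treatment, and the treated libraries lay above the untreated ones in both genotypes. FTH1 rose 1.29-fold with the drug in wild type (log2 0.37 ± 0.098 SE, adjusted p = 0.012) and 1.25-fold in the knockout (log2 0.32 ± 0.098, adjusted p = 0.0388). The wild-type call was lost when untreated wild-type library 1 (adjusted p = 0.063) or treated wild-type library 2 (0.0656) was left out, and under FPKM as deposited (0.0623). The call in the knockout was lost with FPKM as deposited (adjusted p = 0.568), with only the groups compared (0.053) and without the mean-variance trend (0.0504). It was also lost when either untreated wild-type library (adjusted p = 0.0593 and 0.0594), either untreated knockout library (0.173 and 0.0628) or either treated knockout library (0.186 and 0.0669) was left out. Without drug its genotype difference was log2 −0.0044 ± 0.098 (adjusted p = 0.982).

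SMF3 (YLR034C), the divalent metal transporter of the vacuole, moved more than its neighbours there. It was at 74.9 and 73.3 in wild type without drug, 249 and 227 with the drug, 127 and 126 in the knockout without drug, and 148 and 152 in the knockout with it. The 4 groups did not overlap. SMF3 rose 3.18-fold with the drug in wild type (log2 1.67 ± 0.055 SE, adjusted p = 1.43e-06) and also with the knockout without drug (log2 0.77 ± 0.055, adjusted p = 0.000274). In the knockout the drug difference was log2 0.24 ± 0.055 (adjusted p = 0.0146), a call that ended without untreated knockout library 1 (adjusted p = 0.0591) or 2 (0.0743) and without treated knockout library 1 (0.056) or 2 (0.093).

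TIS11 (YLR136C) had the widest swing of the 10 between group means, 8.06-fold. It was at 28.2 and 32.4 in wild type without drug, 236 and 252 with hygromycin B, 83.1 and 97.1 in the knockout without drug, and 216 and 191 in the knockout with it. The untreated wild type was lowest and the treated groups highest, and the 4 groups did not overlap. TIS11 rose 7.85-fold with the drug in wild type (log2 2.97 ± 0.11 SE, adjusted p = 1.88e-06), 2.91-fold with the knockout without drug (log2 1.54 ± 0.11, adjusted p = 0.000249) and 2.24-fold with the drug in the knockout (log2 1.17 ± 0.11, adjusted p = 0.000714). Its paralogue CTH1 was at 96.6 and 104 in wild type without drug, 204 and 198 with the drug, 76.7 and 75.5 in the knockout without drug, and 113 and 114 in the knockout with it. CTH1 was thus lower in the knockout than in wild type without drug (log2 −0.40 ± 0.051, adjusted p = 0.00189), where TIS11 was higher.

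LSO1 (YJR005C-A), a small protein that the table's annotation describes as induced by iron deprivation through Aft1, moved opposite to FET3 and TIS11 with the knockout without drug and with the drug in wild type, and in the same direction with the drug in the knockout. It was at 18.2 and 28.5 in wild type without drug, at 2.52 and 4.22 with hygromycin B, at 2.67 and 5.89 in the knockout without drug, and at 26.1 and 14.3 in the knockout with it. The untreated wild type and the treated knockout were high and overlapped, and the other groups were low and overlapped. LSO1 fell by 2.24 ± 0.42 on the log2 scale with the knockout without drug (SE, adjusted p = 0.00744) and fell by 2.47 ± 0.42 with the drug in wild type (adjusted p = 0.00155), and rose by 2.02 ± 0.42 with the drug in the knockout (adjusted p = 0.0107). Its gene model has 282 bases, the shortest of the 10, and its libraries within a group differed up to 2.21-fold, against at most 1.17-fold for the other 9 genes. The rise in the knockout ended without untreated knockout library 1 (log2 1.56, adjusted p = 0.0526) or treated knockout library 1 (log2 1.60, adjusted p = 0.0608). LSO2 (YGR169C-A), its paralogue in the table's annotation and chosen after its values were seen, was at 1321 and 1471 in wild type without drug and at 3514 and 3062 with it, a rise of log2 1.23 ± 0.095 (adjusted p = 3.15e-05). In the knockout LSO2 was at 1396 and 1393 without drug, a genotype difference of log2 0.00067 ± 0.095, and at 2514 and 2335 with it, a rise of log2 0.80 ± 0.095 (adjusted p = 0.00153).

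Set against each other within a library, FET3 and FTR1 stood higher over their vacuolar partners FET5 and FTH1 in every group other than the untreated wild type. These ratios describe the 2 pairs and not the 2 membranes. With the drug in wild type the vacuolar SMF3 rose 3.18-fold, and FET4 of the plasma membrane was at 1.08-fold and did not pass. The log2 ratio of FET3 to FET5 does not depend on the scale factors and was 1.13 and 1.02 in wild type without drug, 2.08 and 2.23 with the drug, 2.39 and 2.36 in the knockout without drug, and 2.64 and 2.75 in the knockout with it. That of FTR1 to FTH1 was 1.08 and 1.00, then 1.67 and 1.68, then 1.71 and 1.77, and 1.53 and 1.68, in the same order of groups. The FET3 ratio was higher in the treated than in the untreated libraries of both genotypes, by 0.70 on average, and higher in the knockout than in wild type at both treatments, by 0.92. Each had an exact permutation p = 0.0556 (two-sided, labels permuted within the other factor), which is the smallest p that these 36 arrangements allow. For the FTR1 ratio the averages were 0.25 for the drug (exact p = 0.333) and 0.31 for the knockout (exact p = 0.278). In the knockout the treated FTR1 ratios were below the untreated ones, and with hygromycin B the FTR1 ratios of the genotypes overlapped. The plot of log2 ratios shows both pairs.

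**Figure D2:**
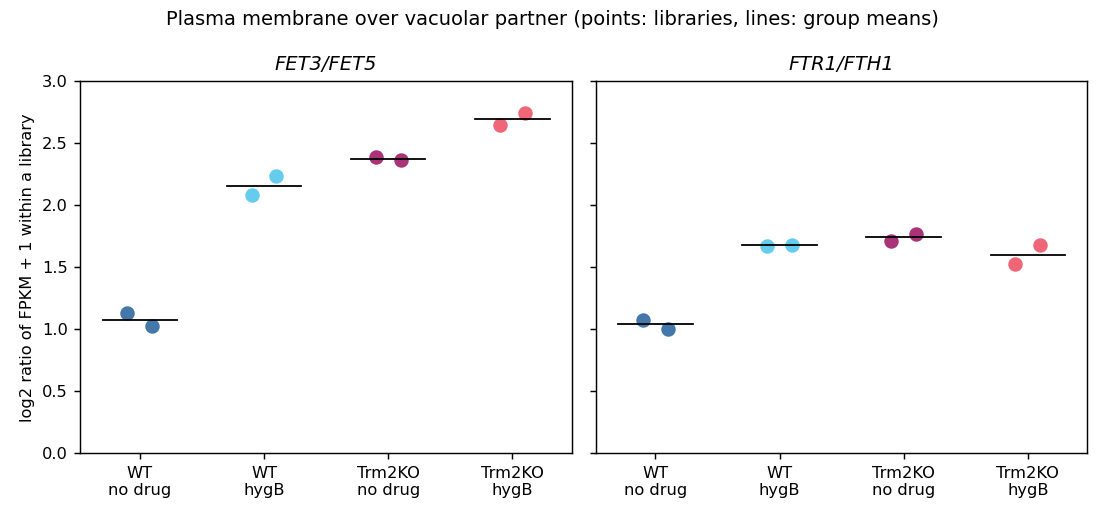
Log2 ratio of FPKM + 1 within a library (vertical axis) for FET3 over FET5 and FTR1 over FTH1 in the 4 groups; points are libraries and lines are means of 2. Wild type without drug is lowest for both pairs, at 1.00 to 1.13, and the FET3 ratio is highest in the knockout with hygromycin B, at 2.64 and 2.75.

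Counted over the set, knockout against wild type without drug gave 7 genes that rose (FET3, FTR1, FRE2, FET4, SMF3, CCC2 and TIS11) and 1 that fell (LSO1) of the 10, where 23.2% of the 6439 tested genes rose and 19.9% fell. The median of the 10 was log2 0.62, against 0.02 over all genes. Hygromycin B in wild type gave 7 that rose (FET3, FTR1, FRE2, FTH1, SMF3, CCC2 and TIS11) and 1 that fell (LSO1), where 40.4% of all genes rose and 38.4% fell, with a median of 0.96 against 0.02. For the knockout without drug, 1 of the 10 passed with FPKM as deposited (LSO1) and 4 with TPM (FET3, FRE2, TIS11 and LSO1), scalings under which the median of all genes itself was at −0.26 and −0.19. Relative to that median, FET3 was higher by 1.27 to 1.37 and TIS11 by 1.49 to 1.52 on the log2 scale under the 4 scalings.

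Hygromycin B in the knockout gave 6 genes that rose (FET3, FTH1, SMF3, CCC2, TIS11 and LSO1) and 1 that fell (FET4), where 20.9% of all genes rose and 22.4% fell, with a median of 0.28 against −0.02. The count of 7 was 4 without untreated knockout library 1 or treated knockout library 1, and 2 with FPKM as deposited (TIS11 and LSO1). LSO1 had the largest rise and TIS11 the next, and FET3 rose 1.37-fold (log2 0.45 ± 0.068 SE, adjusted p = 0.00325).

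Between the genotypes with hygromycin B, 2 of the 10 genes were higher in the knockout (FET3 and LSO1) and 3 were lower (FET4, SMF3 and CCC2), where 37.1% of all genes were higher and 40.1% lower. SMF3 was 0.63 times (log2 −0.66 ± 0.055 SE, adjusted p = 5.06e-05) and CCC2 0.59 times (log2 −0.76 ± 0.058, adjusted p = 3.54e-05) the wild-type level, and LSO1 was 4.75-fold higher (log2 2.25 ± 0.42, adjusted p = 0.00264). FTR1 (log2 −0.13 ± 0.095, adjusted p = 0.261) and TIS11 (log2 −0.27 ± 0.11, adjusted p = 0.0569) did not pass, and FRE2 was at log2 0.26 ± 0.10 (adjusted p = 0.0559), which turned to −0.21 with FPKM as deposited and −0.04 with TPM. FET4 was at log2 −0.16 ± 0.055 (adjusted p = 0.0362) and did not pass with only the groups compared (adjusted p = 0.102), without treated wild-type library 1 (log2 −0.10, adjusted p = 0.1), nor without untreated wild-type library 1 (adjusted p = 0.0585) or 2 (0.0586), untreated knockout library 1 or 2 (0.0603 each), or treated knockout library 1 (0.0564) or 2 (0.184). With untreated knockout library 1 left out, FRE2 (adjusted p = 0.0472) and TIS11 (0.0474) passed, as they did with library 2 left out (0.0483 and 0.0475). With quantile normalisation FTR1 (adjusted p = 0.0297), FRE2 (0.0131) and TIS11 (0.0188) all passed.

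**Figure D3:**
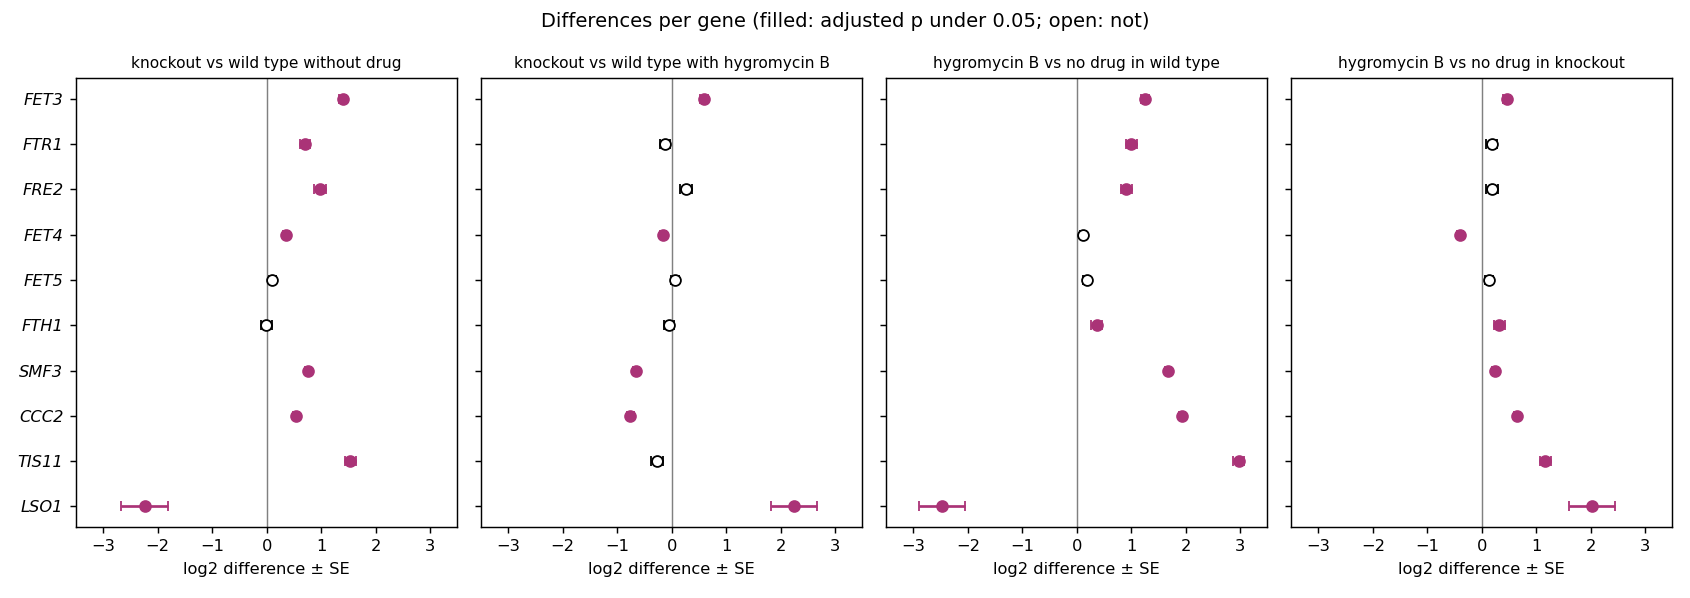
Log2 difference of each gene (horizontal axis, ± SE, limma) in 4 comparisons; filled points have an adjusted p under 0.05. TIS11 with hygromycin B in wild type lies farthest to the right, at 2.97, FET5 is open in all 4 panels, and LSO1 lies opposite to FET3 in the panels of the knockout without drug and of the drug in wild type.

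The response to the drug differed between the genotypes for 8 of the 10 genes by the interaction in the same fit. For 7 (FET3, FTR1, FRE2, FET4, SMF3, CCC2 and TIS11) the change with hygromycin B was lower in the knockout, where 33.9% of all genes passed in that direction, and for LSO1 it was higher, where 30.6% did. The interaction was log2 −1.81 ± 0.15 (SE, adjusted p = 0.000138) for TIS11, −1.43 ± 0.077 (adjusted p = 3.51e-05) for SMF3 and −1.29 ± 0.082 (adjusted p = 5.56e-05) for CCC2. For LSO1 it was 4.49 ± 0.60 (adjusted p = 0.00088). For FET5 it was −0.04 ± 0.10 (adjusted p = 0.731) and for FTH1 −0.05 ± 0.14 (adjusted p = 0.783). These 8 calls held without each single library, whereas 2 of them passed with FPKM as deposited (LSO1 and TIS11) and 6 with TPM.

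Of 22 other genes of the iron regulon, among them siderophore transporters, cell wall mannoproteins and further reductases, 17 rose and 2 fell with the knockout without drug (median log2 0.82, against 0.02 over all genes), where 23.2% of all genes rose and 19.9% fell. With hygromycin B 17 rose and 3 fell in wild type (median 0.98), where 40.4% of all genes rose and 38.4% fell. In the knockout 15 rose and 1 fell with the drug (median 0.49), where 20.9% of all genes rose and 22.4% fell. Between the genotypes with hygromycin B, 10 of the 22 were higher in the knockout and 8 lower (median 0.21). Of all genes 37.1% were higher and 40.1% lower, so these counts lay near those shares. FRE6, a reductase of the vacuole, rose from 50.4 ± 1.35 to 131 ± 2.17 normalised FPKM with the drug in wild type (SD, n = 2; log2 1.37 ± 0.044 SE by limma, adjusted p = 1.42e-06). FRE3, a reductase for siderophore iron, rose from 11.7 ± 0.127 to 78.4 ± 9.67 in the same comparison, and BIO5, which carries a biotin precursor, from 8.28 ± 0.591 to 174 ± 15. FRE1, the main surface reductase of copper and iron, went the other way in wild type, from 157 and 173 without drug to 29.2 and 28.2 with it, and was at 432 and 424 in the knockout without drug and at 475 and 462 with it. The cell wall mannoproteins split with the drug in wild type. FIT3 fell (log2 −2.02 ± 0.34 SE, adjusted p = 0.00132), FIT1 did not pass (log2 0.09 ± 0.28) and FIT2 rose (log2 0.61 ± 0.23, adjusted p = 0.0452).

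The genes listed for copper supply to Fet3 moved both ways in the treated wild type. CTR1, the high-affinity copper transporter of the plasma membrane, fell from 447 and 541 to 35.5 and 39.7 (log2 −3.68 ± 0.10 SE, adjusted p = 9.07e-07), whereas ATX1, the chaperone that carries copper to Ccc2, rose from 200 and 207 to 452 and 453 (log2 1.15 ± 0.055, adjusted p = 4.67e-06). In the knockout CTR1 was at 833 and 837 without drug and 1024 and 972 with it, above every wild-type library. Of the 9 genes listed for copper supply, 3 rose and 5 fell with the drug in wild type (median −0.55). Those that rose were ATX1 and the transcription factor genes CUP2 (log2 1.47) and MAC1 (log2 1.35). Those that fell were CTR1, CTR3, FRE1, FRE7 and GEF1. With the knockout without drug 4 rose and 2 fell (median 0.13), and with the drug in the knockout 2 rose and 1 fell (median 0.13). Between the genotypes with hygromycin B, 5 were higher in the knockout and 4 lower (median 0.55), where 37.1% and 40.1% of all genes were. Over all genes, 40.4% rose and 38.4% fell with the drug in wild type, 23.2% and 19.9% with the knockout without drug, and 20.9% and 22.4% with the drug in the knockout, so the copper counts in wild type lay near the share of all genes. FRE1 and ATX1 are in this list and in the iron regulon list.

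The list called iron-using here held 25 genes for iron-using proteins or for subunits of iron-using enzymes, not all of which bind iron themselves. Of the 25, 12 fell and 3 rose with the knockout without drug (median log2 −0.22). With the drug, 12 fell and 7 rose in wild type (median −0.20), and 17 fell and 2 rose in the knockout (median −0.29). The medians of all genes were between −0.02 and 0.02. The shares of all genes that fell were 19.9%, 38.4% and 22.4% in the same order, and those that rose 23.2%, 40.4% and 20.9%. Between the genotypes with hygromycin B, 10 of the 25 were lower in the knockout and 8 higher (median −0.15). Of all genes 40.1% were lower and 37.1% higher, so these counts lay near those shares. LEU1, an iron-sulfur enzyme of leucine synthesis, fell from 281 ± 9.39 to 118 ± 3.77 normalised FPKM with the knockout without drug (SD, n = 2; adjusted p = 0.000235), and BIO2, the biotin synthase, from 100.1 ± 0.654 to 65.7 ± 2.05. ACO1, the aconitase, fell from 150.4 ± 8.82 to 46.8 ± 0.64 with the drug in wild type, and RNR4, for a small subunit of ribonucleotide reductase, from 544 ± 4.17 to 282 ± 0.732 with the drug in the knockout. Among the 7 that rose with the drug in wild type were ISA1 (log2 1.01 ± 0.067 SE), GLT1 (0.93 ± 0.078) and LIP5 (0.61 ± 0.041). LEU1, lower with the knockout, rose with the drug in the knockout (log2 0.43 ± 0.082, adjusted p = 0.00762). The genes that rose with the knockout without drug were ERG25, ERG11 and ERG3, enzymes of ergosterol synthesis. The letters TATTTAT, part of the element that Tis11 binds, stood on the sense strand within 300 bases after the stop codon in all 25 genes of the list, in 2 of the 10 iron supply genes (TIS11 and SMF3) and in 17% of 5995 genes. The list was written from knowledge that included known Tis11 targets, so its share describes that choice. The site of TIS11 itself, at chrXII:415738-415764 (minus strand, R64), and that of ACO1, at chrXII:735163-735189 (minus strand), are shown with these letters in capitals.
TIS11: taaactcaatTATTTATtatttttttc
ACO1: taaaggttatTATTTATtttgtcttct

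**Figure D4:**
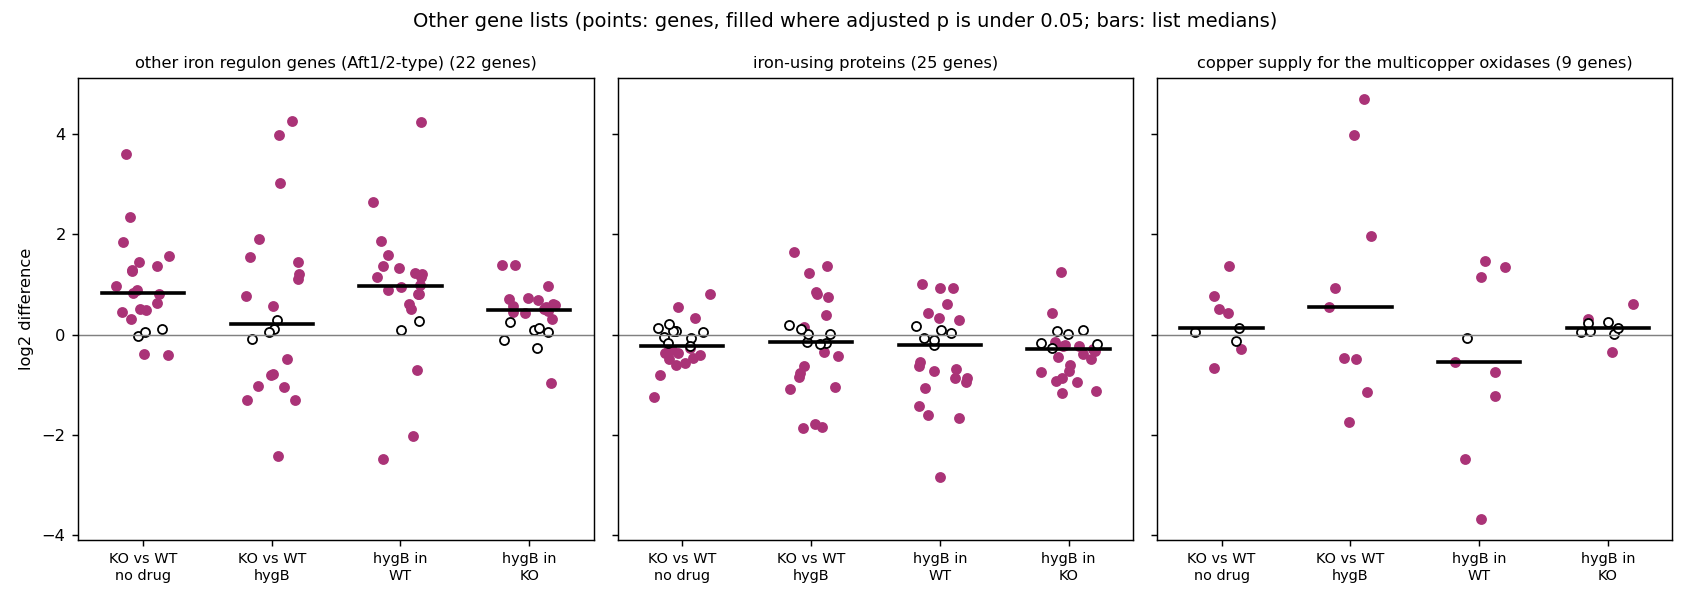
Log2 difference (vertical axis) of the genes of 3 other lists in 4 comparisons, on the horizontal axis; points are genes, filled where the adjusted p is under 0.05, and bars are list medians. The iron regulon medians are 0.82 and 0.98 for the knockout without drug and for the drug in wild type. Between the genotypes with hygromycin B that median is 0.21. The iron-using medians lie below 0. With the drug in wild type the copper list is spread from −3.68 (CTR1) to 1.47 (CUP2, a transcription factor gene).

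Of 10 genes for iron sensing and its regulation, 2 rose and 2 fell with the knockout without drug, 5 rose and 3 fell with the drug in wild type, and 3 rose and 3 fell with the drug in the knockout. AFT1 was at 67.7 and 73.5 in wild type without drug, 114 and 124 with it, 79.1 and 80.9 in the knockout without drug, and 91.7 and 89.7 with it. YAP5, the activator of genes for high iron, rose from 56.0 ± 2.43 to 203 ± 2.23 with the drug in wild type (SD, n = 2; adjusted p = 1.37e-06 by limma) and from 54.5 ± 3.5 to 90.2 ± 0.458 in the knockout. Among those that fell with the drug in wild type were GRX4 (log2 −0.84 ± 0.047 SE, adjusted p = 8.57e-06) and TYW1 (log2 −0.70 ± 0.041, adjusted p = 1.01e-05). Both also fell with the drug in the knockout (log2 −0.48 and −0.24). FET4 and SMF3 are also known to answer to oxygen, and FET4 to zinc, and those lists are given beside them. Of 10 hypoxic genes, 3 rose and 4 fell with the knockout without drug, 5 rose and 4 fell with the drug in wild type, and 3 rose and 5 fell with the drug in the knockout. Of 10 zinc-responsive genes, 1 rose and 4 fell, 2 rose and 5 fell, and 1 rose and 5 fell in the same order. For these 3 lists the shares of all genes that rose were 23.2%, 40.4% and 20.9% in the same order, and those that fell 19.9%, 38.4% and 22.4%. Between the genotypes with hygromycin B, 4 sensing and regulation genes were higher in the knockout and 6 lower. Of the hypoxic genes 2 were higher and 8 lower, and of the zinc-responsive genes 1 was higher and 8 lower. Of all genes 37.1% were higher and 40.1% lower. With so few genes a list the counts are read as no more than a description. The part of oxygen, zinc and copper in the values of the iron genes was not tested.

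Other genes had profiles close to those of the pairs. Likeness was the root mean square difference between profiles of log2(normalised FPKM + 1), centred over the 8 libraries, over 5848 genes whose mean normalised FPKM reached 10. Closest to the mean profile of FET3 and FTR1 were GDS1 (0.11), CBF1 (0.12), CAD1 (0.14), YMR279C (0.17) and YRR1 (0.17). Closest to the mean profile of FET5 and FTH1 were MED4 (0.05), ERF2 (0.07), MET4 (0.07), RPB3 (0.07) and THI20 (0.07), and FET5 and FTH1 differed by 0.12. GDS1, for example, was at means of 80.3 in wild type without drug, 150.1 with it, 143 in the knockout without drug and 183 with it. The siderophore genes of the iron regulon cross this set through the same list: with the knockout without drug ARN1 rose 2.42-fold and SIT1 by log2 1.85, beside 2.64-fold (log2 1.40) for FET3.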

How the data were processed

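The table held 1 FPKM value per feature and library, made by the authors from their reads and deposited without counts; the submitters' processing notes list RSEM 1.3.3, STAR 2.7.8a, FastQC 0.11.8 and cutadapt 2.3. The genome build, annotation and strand setting are not given in the sources used here. Columns were matched to samples through their labels. FPKM were divided by median-ratio factors (0.611 to 1.44, from genes above 0 in all 8 libraries whose mean FPKM reached 1). A search of low values for steps worth 1 read found a periodicity of 0.186 to 0.226 (1 would mean whole reads), so depth is unknown and no counting interval is given. Genes whose mean FPKM reached 1 were fitted with limma 3.58.1 in R 4.3.3 (1 fit of 8 libraries, 1 mean per group, mean-variance trend, 4 residual degrees of freedom, 6.39 after moderation, pseudocount 1). The procedure was also run on simulated data built with the same scale factors, so that run did not test the scaling. P-values were adjusted over all 6439 genes, and a threshold of 0.05 was used. Sequences and 6047 feature matches came from RefSeq R64 by gene identifier; the table holds no coordinates. Named were TRM2, all 10 genes, up to 4 genes with the smallest p of each list and comparison, the 5 genes closest to each pair, and overlapping genes. AFT1, ERG11, FIT1, FIT2, FIT3, GEF1 and the paralogues were added after their values were seen. The genes and lists were chosen with earlier results of these data known. Alternatives were other scalings, pseudocounts, filters, fits and leaving out each library.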

Additional observations from a re-analysis of the deposited data

Results flagged for a closer look

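The response to hygromycin B differed between the genotypes, by the interaction term of the limma fit (2 libraries a group, adjusted over 6439 genes), for 8 of the 10 genes, where 33.9% of all genes passed with a lower and 30.6% with a higher response in the knockout. The difference, knockout minus wild type on the log2 scale, was −1.81 for TIS11, −1.43 for SMF3, −1.29 for CCC2, −0.83 for FTR1, −0.80 for FET3, −0.72 for FRE2, −0.51 for FET4 and 4.49 for LSO1. LSO1 had the opposite sign to the other 7 in this difference: its level was low in the 2 groups where a single one of drug and knockout was present, and high where neither or both were. FET5 and FTH1 had differences of −0.04 and −0.05 that did not pass. No cause was tested.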

How the results depend on the processing

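Of 840 recomputed values of single genes, 751 kept their direction and their side of the threshold, 52 no longer passed, 18 newly passed and 19 turned. With FPKM as deposited the numbers of the 10 genes that passed were 1 (knockout without drug, 8 with the scale factors), 2 (drug in the knockout, against 7), 3 (knockout with drug, against 5) and 2 (interaction, against 8). With TPM 4 passed for the knockout without drug, and with quantile normalisation 8 for the knockout with drug. Leaving out 1 library each gave 8 to 8 genes for the knockout without drug, 7 to 9 for the drug in wild type, 4 to 7 for the drug in the knockout, 4 to 6 for the knockout with drug and 8 to 8 for the interaction. The replicate numbers did not pair the samples (correlations of replicate deviations between groups from −0.23 to 0.26). The replicate block left the 5 counts at 8, 8, 7, 5 and 8. The pair ratios kept their signs in all alternatives.

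Directions turned for FET5 in the knockout without drug (−0.20 with FPKM as deposited, −0.13 with TPM) and with drug (−0.44 and −0.26), for FET4 with the drug in the knockout (0.0021 with FPKM as deposited), and for FRE2 in the knockout with drug (−0.21 with FPKM as deposited, −0.039 with TPM). With quantile normalisation FTH1 turned in the knockout without drug (0.00053) and FET5 in the interaction (0.033). Leaving out 1 library each gave ranges across 0 for FTH1 in the knockout without drug (−0.080 to 0.071), with drug (−0.16 to 0.059) and in the interaction (−0.16 to 0.063), and for FET5 in the knockout with drug (−0.030 to 0.14) and in the interaction (−0.13 to 0.044). The causes were not tested. Of the genes that passed, 53.8%, 51.3%, 48.2%, 48.1% and 47.5% were higher in the 5 comparisons, against 14.1%, 85.6%, 78.1%, 16.6% and 30.1% with FPKM as deposited and 11.4%, 72%, 90.5%, 28.7% and 38.9% with TPM.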
